A study of Mus musculus with 10 samples.

Results

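At 683 genomic regions, RUNX1 was bound in mouse cholangiocytes with and without TGFβ and its enrichment in 4 libraries of batch 1 was no higher with TGFβ. They were chosen from the peak lists of a ChIP-seq experiment, in which an antibody to RUNX1 pulls down bound chromatin and the recovered DNA is sequenced. Peaks of the 6 deposited lists that overlapped by at least 1 bp were merged into 64286 regions. Regions of 5000 bp or more, and those of chromosome 5 that start between 3 and 20 Mb, were dropped, which left 59034. Of these, 10940 were called in all 4 lists of batch 1 and are named shared regions here. In 683 of the 10940 (6.24%), the mean fold enrichment of the TGFβ lists of batch 1 was at or below that of the vehicle lists of batch 1. Fold enrichment is the authors' value per peak, a ratio of the fragments at the peak's summit over the local background, and the highest value of each list in a region was used. Because these values chose the regions, the batch 1 difference is given as a description, with no test. The remaining 10257 shared regions had a ratio above 1.

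The cells were mouse large biliary epithelial cells (MLE), epithelial cells of the larger bile ducts, plated close to confluence. One group received TGFβ at 10 ng/mL overnight and the other vehicle, and a polyclonal RUNX1 antibody was used in all ChIP libraries. The labels name no allele or transgene. Each treatment had 3 ChIP libraries, 2 in batch 1 and 1 in batch 2. Input libraries (4 in all) were not analysed here. The labels do not say whether the batch 1 libraries of a treatment came from separate cultures, so their spread may be technical. Peak lists hold no expression, so the cell type could not be checked against its markers.

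RUNX1 is a DNA-binding transcription factor with a Runt domain, which binds DNA more tightly with its partner CBFβ and which can activate or repress genes depending on its cofactors. TGFβ is a cytokine that signals through a pair of receptor kinases to the SMAD proteins, and SMAD complexes can share sites with RUNX factors. In the bile duct, TGFβ is known as a driver of the fibrotic and reactive response of cholangiocytes. Genes, promoters, motifs and sequences of the regions were not analysed here, because the tables in hand cover GRCm38 and the lists are in mm39 (GRCm39). Positions below are 1-based in mm39.

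The lists held 14733 to 42050 peaks. Read totals are not given, and the lowest background recovered from fold and p-value, a relative measure of depth, lay between 10.4 and 11.8 overlapping fragments in the 6 libraries. Shared regions had higher fold with TGFβ as a whole. Their median log2 ratio of TGFβ to vehicle in batch 1 was 0.58, and in 68.5% of them both TGFβ values lay above both vehicle values. The 683 regions had a median log2 ratio of -0.12, and a region with a ratio near 1 thus lay below the general shift.

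The 683 regions did not stand out by their vehicle signal. Their median fold was 3.43 in vehicle replicate 1 and 4.04 in vehicle replicate 2, beside 3.40 and 4.04 in the other shared regions. With TGFβ their medians were 2.92 in replicate 1 and 3.67 in replicate 2, beside 5.11 and 6.88 in the other shared regions. The 2 sets were thus alike in the vehicle libraries and apart in the batch 1 TGFβ libraries, which is what the choice asked for. In batch 2, which the choice did not use, 247 of the 683 regions were called with vehicle (36.2%) and 290 with TGFβ (42.5%), beside 37.9% and 57.0% of the other shared regions. The TGFβ list thus called the 683 regions less often, but this order rested on single batch 1 libraries. Chosen without TGFβ replicate 2, 43.1% were called in both batch 2 lists and 16.3% with TGFβ alone. Beside them stood 34.4% and 20.9% of all shared regions, a lower total. The total was also lower in all shared regions without vehicle replicate 1 (31.9% and 14.1%, beside 25.9% and 18.7%). Over the called regions of the 683 alone, median fold was 3.05 with vehicle and 3.41 with TGFβ, beside 2.97 and 3.38 in the other shared regions.

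**Figure D1:**
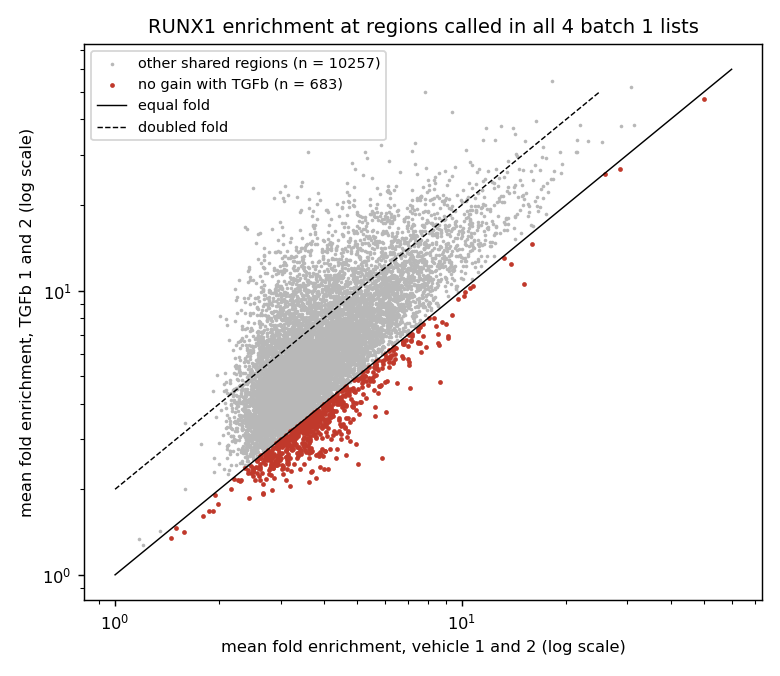
Mean fold enrichment of the batch 1 vehicle libraries (x axis, log scale) against that of the batch 1 TGFβ libraries (y axis, log scale), 1 point per shared region. The 683 regions without gain (red) lie on or under the line of equal fold by construction, at all vehicle levels, and the other 10257 (grey) lie above it, 2140 of them at or above the line of doubled fold (dashed).

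**Figure D2:**
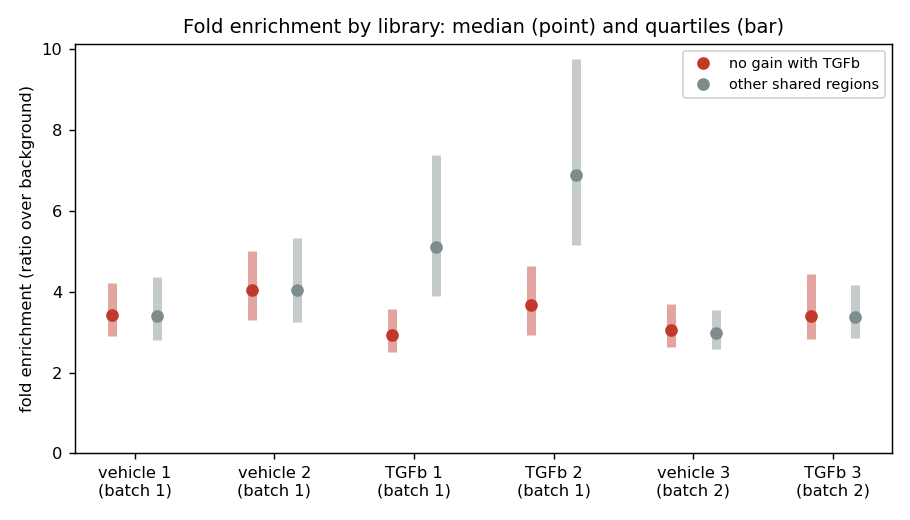
Fold enrichment in each of the 6 libraries, with the median as a point and the quartiles as a bar, for the 683 regions (red) and the other shared regions (grey). The medians are apart in the batch 1 TGFβ libraries (2.92 against 5.11 and 3.67 against 6.88) and close together in the vehicle libraries and, over the regions called there, in both batch 2 libraries.

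The ratio of TGFβ to vehicle among the 683 regions ran from 0.437 to just under 1, with a median of 0.922. It was under 0.90 in 286 regions, under 0.75 in 63, and under 0.50 in 2. Regions nearest to the threshold had batch 1 folds of similar range on both sides, a description of the values that picked them. The 5 regions nearest to it inside had ratios of 0.9987 to 0.9999 and batch 1 folds of 2.09 to 6.87, and the 5 nearest outside had ratios of 1.000 to 1.002 and folds of 2.19 to 6.05. The wider classes differed in batch 2. Both batch 2 lists called 32.5% of the 397 regions at a ratio of 0.9 to 1, and 41.8% of the 622 at over 1 to 1.1. Regions without gain were found at every strength. When the shared regions were cut into 10 equal groups by mean vehicle fold, they made up 4.20% of the weakest group, 5.03% of the strongest and at most 8.78% (vehicle fold of 3.72 to 4.06). With 5 groups by batch 2 vehicle fold, outside the choice, their share was 5.31% in the weakest and 6.29% in the strongest.

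A minority of the regions had both TGFβ libraries under both vehicle libraries. This was so in 175 of the 683 regions, which is 1.60% of all shared regions. With libraries paired by the wording of their titles (replicate 1 with 1, and 2 with 2), both ratios were at or below 1 in 339 (3.10% of all shared regions). The treatment difference exceeded both differences between same-treatment libraries in 119 of the 683. It did so in 6393 of the 10257 other shared regions, where TGFβ was the higher. The pairs were unequal. Pair 1 was at or below 1 in 558 of the 683 regions, with a median ratio of 0.862, and pair 2 in 464, with a median of 0.930. Single libraries moved the number of regions that the rule finds. Chosen without TGFβ replicate 2 it was 2234, without vehicle replicate 1 it was 1984, and without TGFβ replicate 1 it was 454.

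Counting error was wide against differences of this size. A whole-number pileup of fragments at the summit was recovered from fold and p-value, and its median over the 683 regions was 41 and 52 fragments in vehicle replicates 1 and 2 and 40 and 47 in TGFβ replicates 1 and 2. From the summed pileups, each region's ratio was given an exact (Clopper-Pearson) 95% interval, which covers counting error only. The upper bound was under 1 in 76 of the 683 regions (0.695% of all shared regions), and the interval spanned 1 in the other 607. Among the other shared regions the interval also spanned 1 in 2864 of 10257. For most of the 683 regions, equality of TGFβ and vehicle was therefore not distinguishable at this depth from a small gain or a small loss.

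The local background moved with the choice in batch 1. The caller compares each summit with a background that is at least a genome-wide floor, so a fold can be low because the pileup is low or because the background is high. Background exceeded 1.1 times the lowest of the list in 51.1% and 52.0% of the 683 regions in TGFβ replicates 1 and 2, beside 22.2% and 20.6% of the other shared regions. In vehicle replicates 1 and 2 it did so in 22.1% of the 683 regions in both, beside 24.9% and 25.4%. Batch 1 had 1 input library per treatment, and the control used for each list is not given. Both lists of a treatment may share a control, so their near-equal shares need not be separate observations. In batch 2 a background is known only for called regions, 247 of the 683 with vehicle and 290 with TGFβ. Among the called regions the excess was small, at 33.6% against 31.2% in vehicle replicate 3 and 43.8% against 43.0% in TGFβ replicate 3. These shares are not directly comparable with those of batch 1, where all 683 were called. Background with TGFβ was over 1.1 times that with vehicle in 286 of the 683 regions (41.9%) and in 8.77% of the other shared regions. Background is the divisor of the fold that chose the regions, so the choice itself favours regions of raised background with TGFβ.

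**Figure D3:**
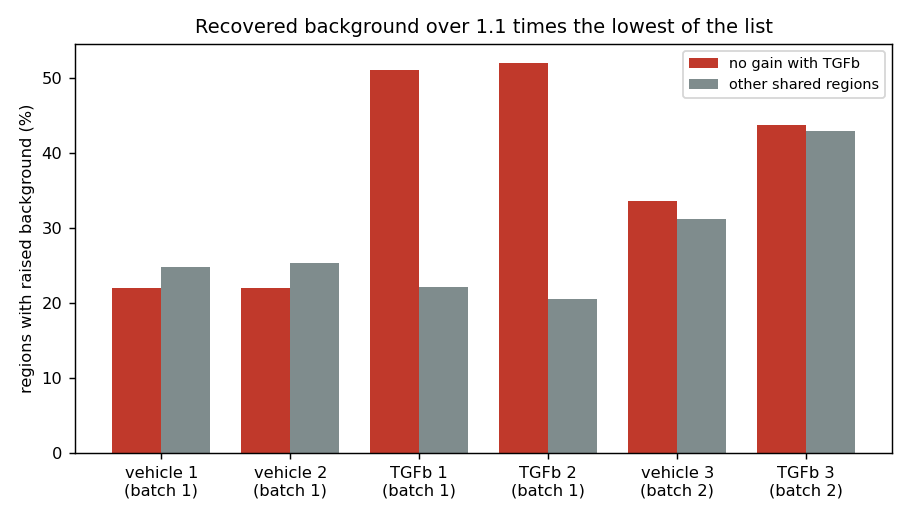
Share of regions whose recovered background exceeds 1.1 times the lowest of the list (y axis, percent), by library, for the 683 regions (red) and the other shared regions (grey). In the batch 2 libraries the shares are over called regions only. The red bars stand at 51.1% and 52.0% in the batch 1 TGFβ libraries and at 22.1% in both batch 1 vehicle libraries, while the grey bars of batch 1 stay between 20.6% and 25.4%.

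Pileup alone divided the set. After each pileup was divided by the lowest background of its list, 426 of the 683 regions still had a TGFβ to vehicle ratio at or below 1, and 257 had a ratio above 1, with a median of 1.11. Over all shared regions 483 (4.41%) were at or below 1 by pileup, so 426 of those 483 were members. In the 257 regions the median background ratio of TGFβ to vehicle was 1.22, and in the 426 it was 1.00. A pileup ratio above 1 with a fold ratio at or below 1 nearly requires a raised background ratio. The value of 1.22 thus follows largely from how the 257 were split off. Where background was at most 1.1 times the lowest in all 4 batch 1 lists, 261 of 6452 shared regions (4.05%) were without gain by fold.

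The strongest regions without gain carried RUNX1 signal in every library or nearly so. Of the 10 with the highest mean vehicle fold, 9 were called in both batch 2 lists, 1 had TGFβ values below both vehicle values, and 4 had both title pairs at or below 1. The pileup ratio was at or below 1 in only 3 of the 10. Background with TGFβ was over 1.1 times that with vehicle in 6, and the batch 2 ratio was above 1 in 8. The strongest, chr6:120339295-120343614, had folds of 46.0 and 53.9 in vehicle replicates 1 and 2 and of 41.6 and 52.8 in TGFβ replicates 1 and 2. Its batch 2 folds were 17.3 with vehicle and 17.6 with TGFβ. The values of the treatments overlapped in batch 1 (ratio 0.944, interval 0.866 to 1.02) and were nearly equal in batch 2 (ratio 1.02), and the summits of all 6 lists lay within 42 bp. Its vehicle fold was also the highest of all 10940 shared regions.

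The next strongest was chr2:126515524-126519008, with 24.6 and 32.7 in the batch 1 vehicle libraries, 21.3 and 32.4 with TGFβ, and 13.0 and 13.8 in batch 2 with vehicle and TGFβ. The treatments overlapped in batch 1, and the summits lay within 113 bp. The region chr19:46290439-46294740 had 24.7 and 27.1 with vehicle, 21.3 and 30.0 with TGFβ, and 6.95 and 8.02 in batch 2. Here both TGFβ values enclosed the vehicle values, and the background was 1.35 times that of vehicle, so that its pileup ratio was 1.31. A similar spread was seen at chr13:58275193-58278106, with 14.4 and 17.3 against 10.8 and 18.3 in batch 1, and 8.47 against 9.45 in batch 2.

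Among the 10, the treatments did not overlap at 1 region. At chr6:100051222-100053038 the folds were 14.5 and 15.7 with vehicle and 9.76 and 11.3 with TGFβ, and in batch 2 the region was called with vehicle (3.77) and not with TGFβ. The ratio was 0.697 (interval 0.593 to 0.815), and the pileup ratio was 0.666 with a background ratio of 0.953. The 4 batch 1 summits lay within 8 bp of each other. It shares a stretch of chromosome 6 with other members: from 100 to 105 Mb, 6 of 16 shared regions were without gain (37.5%), the highest share among 278 bins of 5 Mb with at least 15 shared regions. Among the 6 is chr6:100459836-100460842, at 6.11 and 8.86 with vehicle and 5.28 and 7.80 with TGFβ in batch 1, and at 3.28 with vehicle and 2.47 with TGFβ in batch 2. TGFβ was lower in each pair there, although the batch 1 groups overlapped.

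At chr12:100485438-100486778, vehicle values of 13.9 and 13.8 stood between TGFβ values of 10.5 and 14.4, and batch 2 gave 3.28 with vehicle and 3.20 with TGFβ. The batch 1 ratio was 0.897 and that of pair 1 was 0.754, and background was at the lowest of the list in all 6 libraries. The remaining 4 of the 10 lay on chromosomes 4, 5, 6 and 15, with batch 1 folds of 8.60 to 14.7. All 4 had higher fold with TGFβ in batch 2, by 1.52 times at chr4:99716318-99718278, 1.22 at chr5:129577466-129578896, 1.07 at chr6:143044649-143046343 and 1.17 at chr15:98814706-98817097. In each of them the pileup ratio of batch 1 was above 1, from 1.02 to 1.27.

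The 10 regions with the lowest ratios had mean vehicle folds of 3.62 to 8.63, under those of the strongest 10 (10.2 to 49.9). At all 10, both TGFβ values lay below both vehicle values and the interval of the ratio lay under 1, which describes the batch 1 values they were picked by. In batch 2, none was called in the TGFβ list, 2 were called in the vehicle list, and 8 in neither. The lowest ratio was at chr19:44782602-44783748, with folds of 4.87 and 6.88 with vehicle and 2.57 in both TGFβ libraries (ratio 0.437, interval 0.329 to 0.553). Pileup was lower too, with 75 and 110 fragments against 47 and 44. At chr8:68533918-68536484 the folds were 4.88 and 5.13 against 2.61 and 2.28 (ratio 0.488), but the batch 1 summits were up to 1314 bp apart, so that different peaks of the region were compared.

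The lowest-ratio region with the strongest signal was chr8:87514052-87514923, with 8.05 and 9.21 with vehicle, 4.84 and 4.70 with TGFβ, and 3.01 with vehicle in batch 2, where TGFβ gave no call. Its ratio was 0.553 (interval 0.432 to 0.673), and the summits of the 5 lists that called it lay within 64 bp. Both batch 1 vehicle values lay above both TGFβ values there. The other region of the 10 with a batch 2 call was chr2:163681257-163682385, at 3.93 and 3.31 against 2.00 and 2.25 in batch 1 and 2.34 with vehicle in batch 2, with batch 1 summits up to 689 bp apart. In 7 of the 10 the background with TGFβ was over 1.1 times that with vehicle, and in all 10 the pileup ratio was still at or below 1. At chr5:93199327-93200094 the 2 measures differed most, with a fold ratio of 0.581, a pileup ratio of 0.931 and a background ratio of 1.66.

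**Figure D4:**
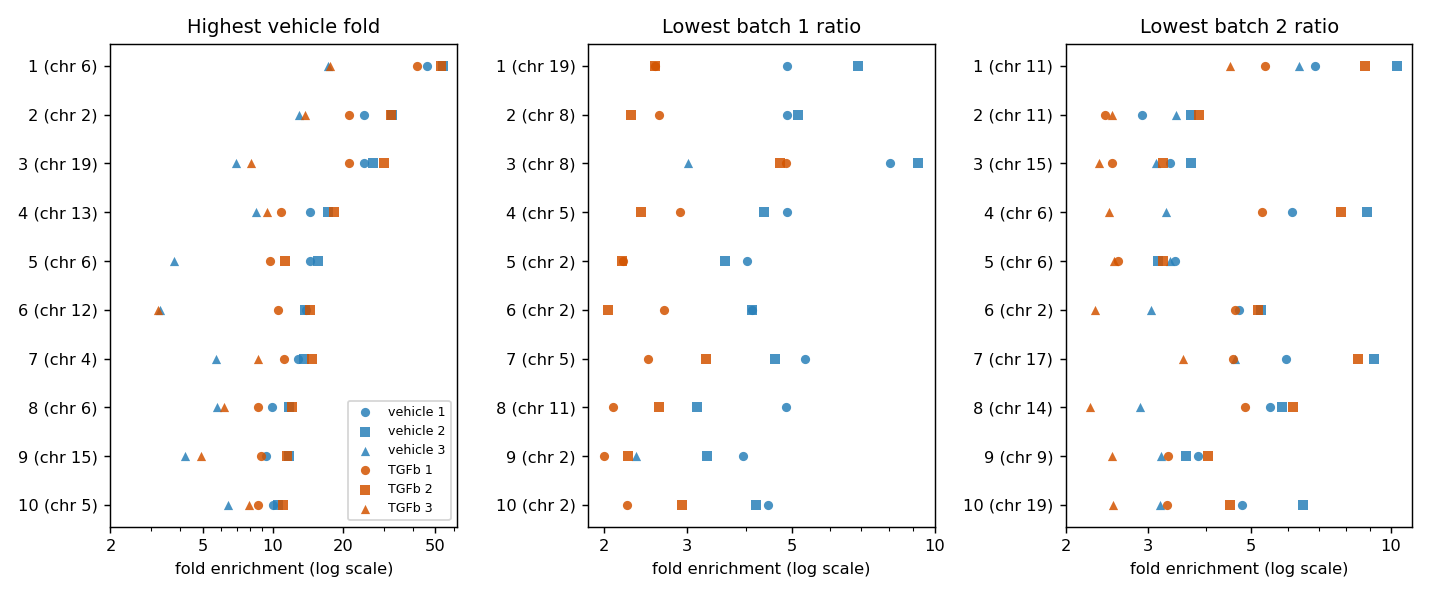
Fold enrichment (x axis, log scale) of the 10 regions with the highest mean vehicle fold, the 10 with the lowest batch 1 ratio and the 10 with the lowest batch 2 ratio, by library (blue vehicle, orange TGFβ, with circles, squares and triangles for replicates 1, 2 and 3). Points of both colours mix in the left panel, and all batch 1 orange points lie left of the batch 1 blue ones in the middle panel, where no batch 2 TGFβ point exists; in the right panel each orange triangle lies left of the blue one.

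Batch 2 gave values that the choice had not used, with 1 library per treatment and hence no test. Of the 683 regions, 204 (29.9%) were called in both batch 2 lists, beside 34.8% of all shared regions. Over these 204, fold was higher with TGFβ in 162, and the median log2 ratio was 0.22 (quartiles 0.07 and 0.43). All shared regions called in both batch 2 lists (3806) had a median of 0.29. TGFβ was at or below vehicle in 42 of the 204 (20.6%), beside 13.7% of all 3806. Most regions without gain in batch 1 that were called in both batch 2 lists thus had the higher value with TGFβ there. The gap between 20.6% and 13.7% moved with single libraries, closing or nearly so without some and widening without others. Chosen without TGFβ replicate 2, the share was 13.5% of the regions without gain beside 13.9% of all shared regions, and without vehicle replicate 1 it was 15% beside 14.0%. Without TGFβ replicate 1 it was 31.7% beside 13.8%, and without vehicle replicate 2 it was 33.3% beside 13.9%. The share called in both lists also turned, to 43.1% beside 34.4% without TGFβ replicate 2 and 31.9% beside 25.9% without vehicle replicate 1.

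Calls in a single batch 2 list were more often in the TGFβ list, as in all shared regions, but by less. Among the 683 regions 43 were called with vehicle alone (6.30%, exact interval 4.59% to 8.39%, counting error only), beside 2.98% of all shared regions. With TGFβ alone, 86 were called (12.6%, interval 10.2% to 15.3%), beside 21.3%. Neither list called 350 (51.2%), beside 41.0%. Both gaps were narrower without TGFβ replicate 2, where 3.67% were called with vehicle alone beside 2.95% and 16.3% with TGFβ alone beside 20.9%. The upper 2 classes of the 683 regions were alike, with 5.04% called with vehicle alone and 12.8% with TGFβ alone at a ratio of 0.9 to 1, and 5.83% and 13.5% at 0.75 to 0.9. Just above the threshold, at a ratio over 1 to 1.1, the shares were 3.54% and 14.8%. A share with TGFβ alone under the 21.3% was thus not particular to the 683 regions. In the 63 regions with a ratio under 0.75, 10 were called with vehicle alone and 5 with TGFβ alone, so that the lower class rests on few calls. In the 2140 shared regions whose fold at least doubled, the shares were 2.48% and 29.8%. Both lists called 20.2% of these 2140 regions, and neither list called 47.6%. At ratios over 1 to 1.1, over 1.1 to 1.5 and over 1.5 and under 2, neither list called 39.9%, 36.1% and 41.0%. A low share called in both lists, or a high share called in neither, was thus not particular to the 683 regions. In the 175 regions where the batch 1 treatments did not overlap, 19 were called with vehicle alone and 16 with TGFβ alone. Of the 23 among them called in both lists, 12 were at or below 1 (52.2%, against the 13.7%). Of the 12, 5 had a background at least 3 times the lowest in all batch 1 lists, and without such regions 7 of 18 were at or below 1 (38.9%, beside 13.5%). Across the 204 regions the log2 ratios of the batches were only weakly related (Pearson's r = 0.103, Spearman's rho = 0.110), a description over regions that share their libraries. Over all 3806 shared regions called in both batch 2 lists the values were 0.048 and 0.036. The weak relation was thus not particular to the 683 regions, and batch 2 is a limited check.

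**Figure D5:**
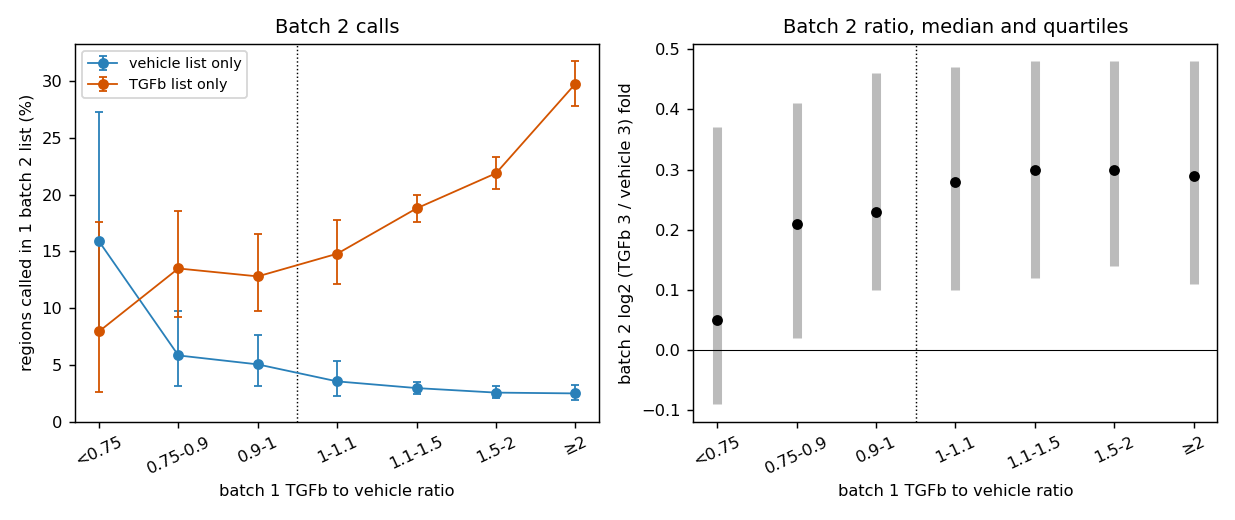
Shared regions grouped by batch 1 ratio (x axis), with the dotted line at a ratio of 1. On the left is the percent called in the batch 2 vehicle list alone (blue) or TGFβ list alone (orange). The exact 95% intervals there cover counting error only, over regions that share 1 library per treatment. On the right is the batch 2 log2 ratio with its median and quartiles. The orange series lies at 7.94% under a ratio of 0.75 and at 29.8% from a ratio of 2, the blue one at 15.9% and 2.48%, and the medians on the right are 0.05 (10 regions), 0.21 and 0.23 in the classes under 1 and 0.28 to 0.30 above it.

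Some regions were lower with TGFβ in both batches. The lowest batch 2 ratio of a member was 0.710, at chr11:58197726-58199059. Folds there were 6.85 and 10.3 in vehicle replicates 1 and 2, 5.35 and 8.77 in TGFβ replicates 1 and 2, 6.34 in vehicle replicate 3 and 4.50 in TGFβ replicate 3. TGFβ was below vehicle in each of the 3 pairs, while the batch 1 groups overlapped, and the background was at or within 1% of the lowest in all 6 lists. The region chr19:36708294-36710490 had no overlap between treatments in batch 1, with 4.78 and 6.46 against 3.29 and 4.50, and 3.18 against 2.53 in batch 2. At chr17:71296509-71299423 the folds were 5.94 and 9.17 against 4.57 and 8.48, and 4.62 against 3.57 in batch 2. Of the 10 regions with the lowest batch 2 ratios, 6 had both batch 1 pairs at or below 1, and the batch 2 ratios of the 10 ran from 0.710 to 0.796. The batch 1 treatments did not overlap in 2 of the 10, and the counting interval lay under 1 in 1. Because batch 2 values picked these 10, batch 2 is no check on them. Of the 339 regions with both batch 1 pairs at or below 1, 92 were called in both batch 2 lists, and 20 of these 92 were at or below 1 there too (21.7%, beside 13.7% of all shared regions). Without the regions of high background it was 15 of 87 (17.2%, beside 13.5%). A further 25 of the 339 were called with vehicle alone in batch 2.

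A set of 9 members had a background at least 3 times the lowest in all 4 batch 1 lists, a limit set after the values were seen. They were 3 of the 8 shared regions of the unplaced contig MU069435.1, with chr17:40154181-40157731, chr17:40158370-40159630, chr11:3122279-3122778, chr11:108902472-108902942, chr2:98496918-98497672 and chr3:5925400-5925886. Their folds in batch 1 were low, from 1.28 to 3.82, on top of pileups that reached 4220 fragments. At chr11:108902472-108902942 the batch 1 folds were 1.97 and 1.87 with vehicle and 1.59 and 1.77 with TGFβ, whereas batch 2 gave 25.5 in both libraries. The background was 40.8 to 46.2 times the lowest in batch 1 and 3.93 and 4.02 times in batch 2, while pileup was 833 to 870 fragments in batch 1 and 1234 and 1081 in vehicle and TGFβ replicate 3. In all, 19 shared regions had such a background, and all 19 were called in both batch 2 lists. Batch 2 ratios were at or below 1 in 7 of the 9 members and in 5 of the 10 others. Without them, 35 of 195 members (17.9%) were at or below 1 in batch 2, beside 13.5% of the shared regions without such background.

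Summits and spacing described the set further. In regions called in all 6 lists, all 6 summits fell inside 200 bp in 106 of the 204 members (52.0%) and in 40.5% of the other shared regions. The batch 2 summits of vehicle and TGFβ were a median of 45 bp apart in members and 53 bp in the others. In batch 1 the order was the opposite, with median spans of 170 and 146 bp over the 4 lists. Median peak width in vehicle replicate 3 was 420 bp in members and 403 bp in the others, and in TGFβ replicate 3 it was 488 and 471 bp. In batch 1 members were narrower, with 562 against 597 bp and 831 against 901 bp in vehicle replicates 1 and 2. In TGFβ replicates 1 and 2 it was 622 against 1077 bp and 1023 against 1543 bp. The merged regions had median widths of 1283 and 1661 bp, and the summit shares were not adjusted for width. The nearest shared region was a median of 27.7 kb away, beside 29.5 kb for the others, and was itself a member for 62 of the 683 (9.08%), beside 6.17%.

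The regions were spread over all 19 autosomes, and 3 lay on the contig named above. Their share of the shared regions was highest on chromosome 19 (10.0%, 57 of 569) and chromosome 6 (9.48%, 64 of 675), and lowest on chromosome 7 (2.60%, 12 of 461) and chromosome 9 (2.74%, 11 of 402). None was among the 35 shared regions of chromosome X. The median batch 1 ratio of all shared regions differed little between the autosomes, from 1.44 to 1.55.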

How the data were processed

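RUNX1 ChIP-seq peak lists of 6 libraries were used, grouped by the treatment label. The submitters' processing notes name DRAGEN, Trimmomatic, Bowtie2 2.5.2, MACS2 and mm39 (GRCm39), with no settings. The authors deposited 1 list per library in narrowPeak format, with a fold enrichment (ratio over background), a −log10 p-value and −log10 q-value, a score (not used here) and a summit position per peak. Python 3.11.15, pandas 2.3.3, NumPy 2.4.6 and SciPy 1.17.1 were used to merge peaks, apply the rule given with the results and recover pileup and background from fold, (pileup + 1)/(background + 1), and the Poisson p-value. A whole-number pileup matched within 0.001 on the −log10 p scale for 99.98% to 99.99% of peaks per list. Read depth is not given, and lists hold no counts per region, so no model was fitted. Code was tested on simulated data. Regions named in the text are the 10 highest by mean vehicle fold, the 10 lowest by batch 1 ratio, the 10 lowest by batch 2 ratio, and 5 on each side of the threshold. The 9 regions of high background and the chromosome 6 stretch were added after values were seen. The regions and rules were chosen with earlier results of these data known. Planned shares of promoters and motifs, and gene lists, were not analysed here, for want of a GRCm39 reference. Alternatives covered thresholds, merging, scaling, pileup, pairing and leaving out libraries. No unmapped columns were present.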

Additional observations from a re-analysis of the deposited data

Results flagged for a closer look

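The batches differed in direction over the 204 of the 683 regions that were called in both batch 2 lists. Their median log2 ratio of TGFβ to vehicle was 0.22 in batch 2, while the batch 1 pairs had medians of -0.20 and -0.05 over the same 204. The other 479 regions had no batch 2 ratio. The batch 1 direction was set by the choice of regions, and the difference was not tested. The same was seen at 3 of the strongest regions, where both batch 1 pairs were at or below 1: the batch 2 ratio was 1.02 at chr6:120339295-120343614, 1.06 at chr2:126515524-126519008 and 1.17 at chr15:98814706-98817097. These differences were not tested either.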

How the results depend on the processing

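The number of regions without gain (683) was 388 with a −log10 q of at least 5, 6056 after each fold was divided by its list's median over shared regions (which takes away the overall shift of 0.58 log2), and 175 when all 4 between-treatment pairs had to be at or below 1. With the replicate block (pairs by title wording, both at or below 1) it was 339. Leaving out 1 batch 1 library gave 454 to 2234. The median log2 batch 2 ratio (0.22) was 0.11 after that division (0.11 over all shared regions), -0.0013 (23 regions) with all 4 pairs, and 0.13 to 0.30 without 1 library, beside 0.29 over all shared regions in each case. The percent called in both batch 2 lists (29.9%, beside 34.8% of all shared regions) was 13.1% with all 4 pairs and 21.1% by pileup, beside the same 34.8%, and 23.1% beside 25.9% with regions of 2000 bp or more dropped. It lay above that of all shared regions after the division (40.3% beside 34.8%), with a −log10 q of at least 5 (30.9% beside 28.5%), without TGFβ replicate 2 (43.1% beside 34.4%) and without vehicle replicate 1 (31.9% beside 25.9%). Without 1 library it ran from 13.2% to 43.1%. Under the pairing the median log2 ratio was 0.19 and the percent 27.1%. Kept to regions of flat background (at most 1.1 times the lowest in all 4 batch 1 lists), an alternative chosen after seeing the data, the number was 261 of 6452 (4.05%), the percent 19.2% beside 29.2%, and the median log2 ratio 0.22. Dropping the regions of high background, also chosen after seeing the data, gave 674, 28.9% and 0.24. The cause of these moves was not tested. Shares of promoters and motifs were not run. Depth limits single regions: the upper bound of the counting interval was a median of 1.83 times the lower.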

Other observations

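Regions without gain were rarer on the 7 autosomes whose shared regions were narrow. On chromosomes 4, 7, 9, 10, 12, 14 and 18, where the median shared region was 1312 to 1374 bp wide, 87 of 2398 shared regions were without gain (3.63%). On the other 12 autosomes, with medians of 1543 to 1872 bp, 593 of 8496 were (6.98%). Single chromosomes overlapped, at 2.60% to 5.26% and 4.76% to 10.0%. By region the order was the opposite. Median width was 1283 bp in regions without gain and 1661 bp in the others. With regions of 2000 bp or more dropped, 568 of 7240 were without gain (7.85%). The median ratio of all shared regions was 1.51 and 1.49 in these groups. The share of shared regions whose background with TGFβ was over 1.1 times that with vehicle was 1.67% and 13.5%. Where background was at most 1.1 times the lowest in all 4 batch 1 lists, 3.34% and 4.46% were without gain. The split of chromosomes by width was made after the values were seen, and its part in the result was not tested.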
